A study of Mus musculus with 6 samples.

Results

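The Myb family of transcription factors holds 3 genes in the mouse, Myb, Mybl1 and Mybl2, and all 3 were measured by 7 of the 45037 probe sets in RNA from CD31-sorted mammary endothelial cells. The members were found as the probe sets whose platform annotation names exactly 1 gene, that gene being a family member, and they stand for 3 of 18193 genes. Myb (chr10:21124930-21160984, build GRCm38.p6) had 3 probe sets, and Mybl1 (chr1:9667407-9700439) and Mybl2 (chr2:163054327-163084688) had 2 each. The family was chosen by its values on these same arrays, since a Myb probe set passes the thresholds used with them (more than 2-fold, p under 0.05 before adjustment), and Mybl1 and Mybl2 were added as the relatives of Myb. The differences of the members are therefore given as a description without a test.

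All mice were FVB/N, 9 weeks old and carriers of PyMT, the polyoma middle T oncogene expressed in the mammary epithelium from the MMTV promoter. In the 3 deleted samples (PyMT;Fsp-cre;Ets2db/loxP) a Cre recombinase under the promoter of Fsp1, also called S100a4, removed the floxed Ets2 allele in fibroblasts. The 3 control samples (PyMT;Ets2db/loxP) had no Cre. Both groups also carried Ets2db, a germline allele without the DNA-binding domain, so the control cells had 1 working Ets2 allele and not a wild-type pair. Each sample was hybridized to 1 Affymetrix array, and the signal is given on the log2 scale after the Robust Multichip Average method (RMA). The question was whether loss of Ets2 from the fibroblasts of the tumor changes what the neighboring endothelial cells express. Differences are means of deleted samples minus means of control samples.

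Myb proteins bind DNA through repeats of a tryptophan-rich fold at their N terminus. Myb, also called c-Myb, is known for keeping blood progenitors and immature T cells in an undifferentiated and dividing state, and it is also made in luminal mammary epithelium. Mybl2, or B-Myb, is made in most dividing cells under the control of E2F factors and joins the MuvB complex to activate mitotic genes. Mybl1, or A-Myb, is best known from the testis, where it drives meiotic and piRNA pathway genes, and from activated B cells.

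Promoter sequences were at hand for Myb and Mybl2, and a short stretch of each is shown because E2F factors stand upstream of the family in the cell cycle. The windows span 250 bases before and 50 bases after a RefSeq start site (build GRCm38.p6). Capitals mark the E2F-type letters GGCGGGA, which were searched on both strands, and these matches overlap no match of the other motifs searched. The Myb stretch lies on the minus strand at chr10:21160975-21161004, the Mybl2 stretch on the plus strand at chr2:163054611-163054640.
Myb: gcgccagatttGGCGGGAgggggagtgtcc
Mybl2: ccgacgcacttGGCGGGAgataggaaagtg
The match began 9 bases before the start site of Myb and 13 bases before that of Mybl2. The Mybl2 window belongs to a start site that lies downstream of the outermost annotated start of the gene, so this stretch is inside the span given above. These letters occur in 11.3% of all 32851 promoter windows of the same length. The Mybl2 window also held 1 match to the Myb recognition letters TAACNG, which 23.3% of all windows hold. A match is a feature of the sequence and does not show that a factor was bound in these cells.

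The RMA signal spanned 2.31 to 14.9 with a median of 7.03, and array medians lay between 7.02 and 7.07. Endothelial markers were bright, with Pecam1 at 11.69 ± 0.37 in deleted and 11.30 ± 0.41 in control samples (SD, n = 3 each). Epithelial transcripts were bright as well, with Krt8, a keratin of luminal cells, at 13.75 ± 0.32 in deleted and 13.90 ± 0.25 in control samples (SD, n = 3 each), so keratin RNA was present in the sorted samples. Control replicate 3 had the largest excess of 3' over 5' signal, 1.31 for Gapdh and 1.67 for beta-actin, against 0.75 to 1.01 and 0.99 to 1.29 in the other arrays.

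Myb was lower in deleted samples at each of its 3 probe sets, by an amount that differed from one probe set to the next. Probe set 1450194_a_at read 6.06, 5.54 and 5.79 in deleted samples, against 6.79, 6.90 and 6.73 in control samples. All 3 deleted values lay below all 3 control values, and the control values were within 0.17 of each other. The means were 5.80 ± 0.26 in deleted and 6.80 ± 0.09 in control samples (SD, n = 3 each), a difference of -1.01, or 2.01-fold lower. In sorted bulk RNA, fewer Myb-expressing cells and less Myb RNA per cell cannot be told apart.

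The dimmest Myb probe set, 1422734_a_at, was also without overlap. It read 3.64, 4.67 and 3.97 in deleted samples, against 4.68, 4.96 and 4.77 in control samples, and deleted replicate 2 came within 0.01 of control replicate 1. The means were 4.09 ± 0.53 in deleted and 4.81 ± 0.14 in control samples (SD, n = 3 each), a difference of -0.72. Its signal lay in the 17.3rd percentile of all probe sets, where RMA values hold much background and differences are narrowed.

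The brightest Myb probe set did not separate the groups. Probe set 1421317_x_at read 10.54, 9.93 and 9.40 in deleted samples, against 10.69, 9.87 and 10.30 in control samples. Deleted replicate 1 lay above 2 of the control samples, and only deleted replicate 3 lay below all of them. The means were 9.96 ± 0.57 in deleted and 10.28 ± 0.41 in control samples (SD, n = 3 each), a difference of -0.33. On these arrays the suffix x marks probe sets with probes that can match other transcripts, and the suffix a marks those that match several transcripts of 1 gene. Which Myb transcripts each probe set detects was not tested.

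The 3 Myb probe sets did not put the arrays in 1 order. Control replicate 2 was the highest array at both probe sets that separated the groups, but only the fifth of 6 at the brightest one. Deleted replicate 1 was the lowest array at 1422734_a_at and the second highest at 1421317_x_at. Only 1450194_a_at was past a difference of 1 in size, and just so at -1.01, while 1422734_a_at was short of it at -0.72.

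**Figure D1:**
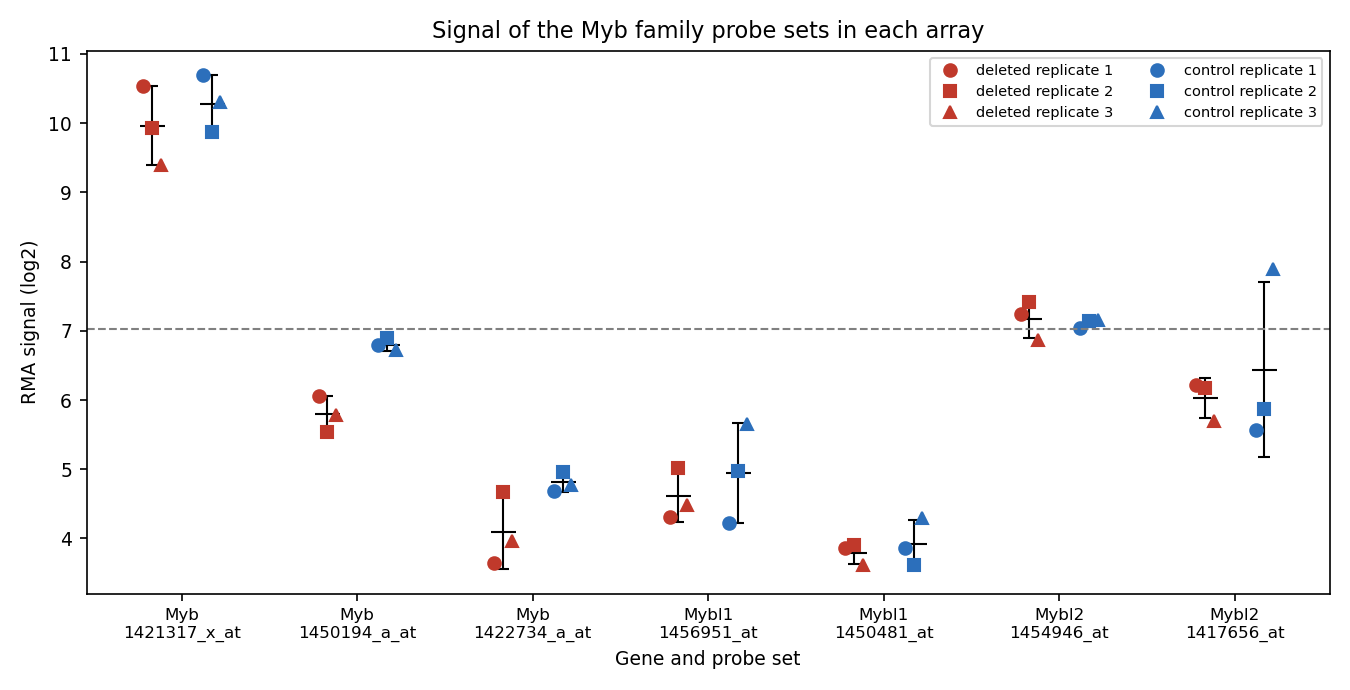
RMA signal (log2, vertical axis) of the 7 Myb family probe sets in each array, with deleted samples in red left of control samples in blue, marker shapes for the replicates, and black bars showing mean and SD (n = 3). A dashed line gives the median of all probe sets, 7.03. The groups are apart only at Myb 1450194_a_at and 1422734_a_at, and control replicate 3 stands high at Mybl2 1417656_at with 7.90.

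Mybl2, the family member of the cell cycle, was nearly level between the groups at its brighter probe set. Probe set 1454946_at read 7.24, 7.41 and 6.87 in deleted samples, against 7.04, 7.14 and 7.15 in control samples, so that the deleted values lay on both sides of the control values. The means were 7.17 ± 0.27 in deleted and 7.11 ± 0.06 in control samples (SD, n = 3 each), a difference of 0.06. Probe set 1417656_at read 6.22, 6.17 and 5.69 in deleted samples, against 5.57, 5.87 and 7.90 in control samples. Its difference of -0.42 rested on control replicate 3, the next highest array being deleted replicate 1 at 6.22, and without that array the difference was 0.31. The brighter probe set had control replicate 3 at 7.15, within 0.01 of control replicate 2.

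Mybl1 was dim, at the 21.3rd and 10.3rd percentiles of signal, and its groups overlapped. Probe set 1456951_at read 4.31, 5.02 and 4.49 in deleted samples, against 4.22, 4.97 and 5.65 in control samples. The lowest and the highest value were both from control samples. The difference of -0.34 became 0.01 without control replicate 3, the array with the largest 3' excess. Probe set 1450481_at read 3.86, 3.90 and 3.61 in deleted samples, against 3.86, 3.62 and 4.29 in control samples, a difference of -0.13 that became 0.05 without the same array. The part of the 3' excess in these values was not tested.

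With single arrays left out, the size of the Myb difference varied and that of its relatives lost its sign. For 1450194_a_at the difference ranged from -1.14 without deleted replicate 1 to -0.88 without deleted replicate 2, and it was over 1 in size in 4 of 6 such settings. It was -0.96 without control replicate 2. For 1422734_a_at it shrank to -0.49 without deleted replicate 1, and in 1 of 6 settings, without deleted replicate 2, it was just over 1 in size. For 1421317_x_at it ranged from -0.62 without deleted replicate 1 to -0.05 without deleted replicate 3. The sign cannot turn where the groups do not overlap, so the ranges at 1450194_a_at and 1422734_a_at show size alone. At 1421317_x_at the sign was kept as well, and all 4 probe sets of Mybl1 and Mybl2 changed sign in at least 1 setting. Without deleted replicate 2 the brighter Mybl2 probe set turned to -0.06.

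**Figure D2:**
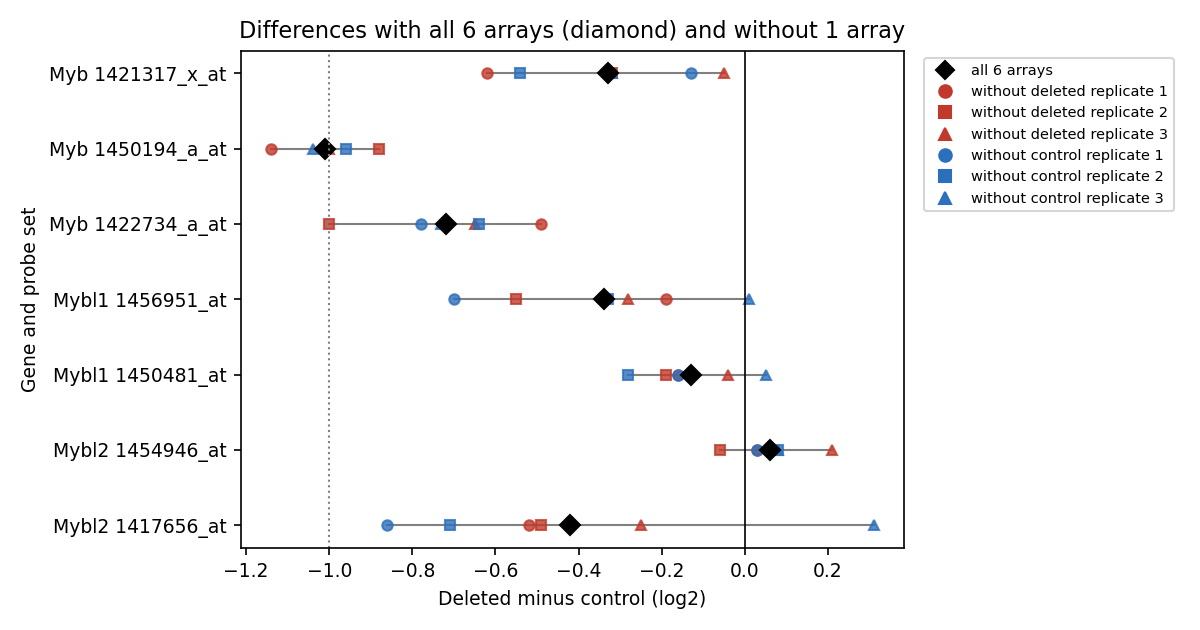
Deleted minus control (log2, horizontal axis) for each Myb family probe set, with a black diamond for all 6 arrays, colored markers for the difference without the named array, and a grey line for their range. The dotted line marks a difference of -1, the 2-fold threshold. Myb 1450194_a_at ranges from -1.14 to -0.88, and Mybl2 1417656_at reaches 0.31 without control replicate 3.

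Counted over the family, 1 of 7 probe sets, Myb 1450194_a_at, was past both thresholds, and it was lower. The same thresholds were passed by 58 of the 45037 probe sets (0.129%), and 35 (0.0777%) were lower. The groups were without overlap at 2 of 7 probe sets, both lower, against 6.44% of all probe sets in either direction and 2.83% lower. After Benjamini-Hochberg adjustment of limma's moderated test, 0 of 7 were called, as were 0 (0%) of all probe sets, with 0.9999 as the smallest adjusted p. Before adjustment limma had 934 probe sets with p under 0.05, and the unmoderated test had 1164, of which 0 remained after adjustment. As the family was chosen on this contrast, these shares describe the members and carry no test.

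The genes around the Myb family were little different between the groups. Over 7 lists of partners, targets and relatives, 92 genes had a probe set of their own, 38 lower and 54 higher in deleted samples, with a median difference of 0.04 and a range of -0.69 to 0.47. The median over all 18193 genes was 0.00, and 49.1% of them were lower. By limma, 0 of the 92 were called at an adjusted p under 0.05, 0 had an unadjusted p under 0.05 and 0 passed the fold threshold. The groups were without overlap for 3 of the 92 genes (3.26%), Rbl1, Mcm4 and Gfi1, all of them higher. Over all probe sets the share was 6.44%, but that counts every probe set and not only the brightest of each gene.

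The MuvB core and its cell cycle partners were measured in full, with 7 of 15 genes lower and 8 higher and a median of 0.01. Lin9 and Lin54, core subunits of MuvB, differed by -0.01 (SE 0.143) and -0.15 (SE 0.185). Foxm1, the forkhead factor that joins MuvB after B-Myb, differed by 0.25 (SE 0.295), and E2f1 and E2f4 by 0.18 and -0.05. Rbl1, which encodes the pocket protein p107, read 9.93, 9.93 and 9.96 in deleted samples, against 9.80, 9.70 and 9.81 in control samples, without overlap but by only 0.17. The related Rbl2 differed by 0.11. No call was made among them (limma, adjusted p = 0.9999 each).

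Of 19 mitotic genes that B-Myb and MuvB are known to bind, 14 were higher and 5 lower in deleted samples, with a median of 0.11. The median had no stable sign, at -0.07 when control replicate 1 was left out, -0.03 and -0.02 when deleted replicate 1 or 2 was, and 0.38 when deleted replicate 3 was. Birc5, which encodes survivin, differed by 0.18 (SE 0.247), Mki67, which encodes the proliferation antigen Ki67, by 0.18 (SE 0.342) and the mitotic kinase Plk1 by 0.10 (SE 0.466). Among 12 DNA replication genes, 10 were higher, with a median of 0.14, and Mcm3 and Mcm4, subunits of the replicative helicase, differed by 0.38 (SE 0.269) and 0.26 (SE 0.147), Mcm4 without overlap. The replication median ranged from -0.03 when control replicate 1 was left out to 0.31 when deleted replicate 3 was, and leaving out deleted replicate 2 gave 0.00. No gene of either list was called by limma (adjusted p = 0.9999 for each gene named). Promoter windows were at hand for 16 of the mitotic genes, and 12 of them held TTTGAA, the CHR letters that MuvB recognizes. The share was 75% of these genes, against 20.2% of all 27025 genes with a window, and neither Myb nor Mybl2 held it.

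Mybl2 and the mitotic genes ordered the 6 arrays alike, in a pattern that cut across the genotypes. At the brighter Mybl2 probe set the arrays ran from deleted replicate 2 at the top through deleted replicate 1, control replicate 3, control replicate 2 and control replicate 1 down to deleted replicate 3. The mean of the 19 mitotic genes put them in exactly that order, at 0.30, 0.40 and -0.56 relative to the list mean in deleted replicates 1, 2 and 3, against -0.44, -0.02 and 0.30 in control replicates 1, 2 and 3. Of 20 lists compared with it, this was the only one in the same order. Deleted replicate 3 was the lowest array for 12 of the 19 mitotic genes and for 19% of all genes. Among single genes, 4 of the 19 (21.1%) and 49 of all 18193 (0.269%) followed the whole order. Control replicates 3 and 2 read 7.15 and 7.14 at the brighter Mybl2 probe set, so their place in the order rests on a near tie. The order was noticed after the values were seen, and the dimmer Mybl2 probe set did not share it.

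**Figure D3:**
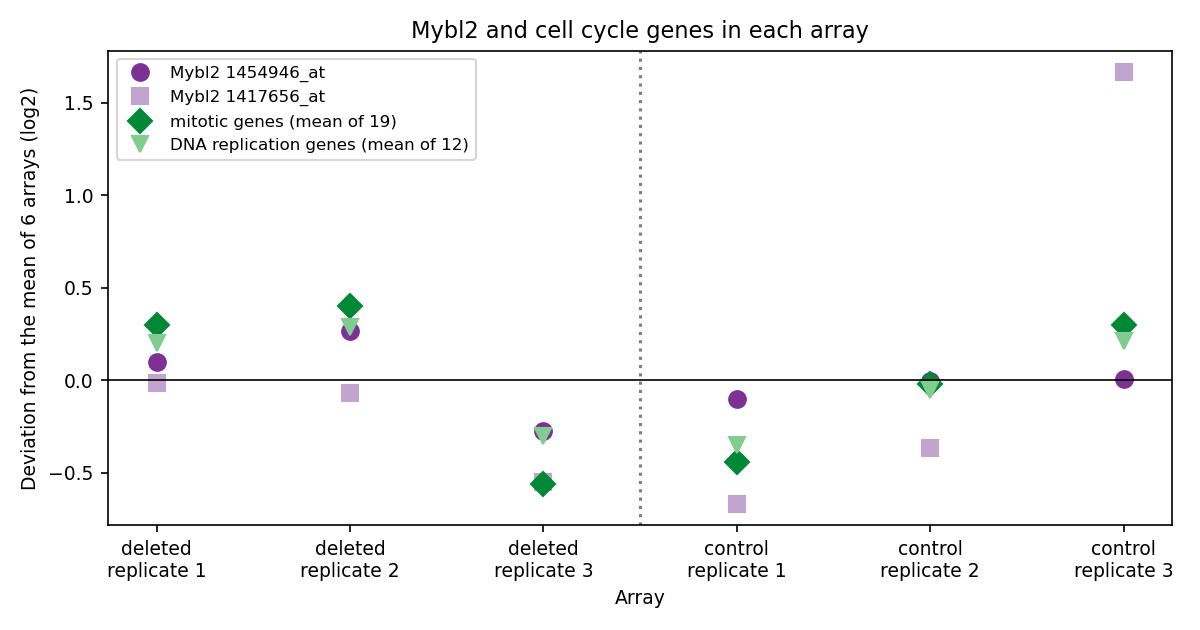
Deviation of each array from the mean of 6 arrays (log2, vertical axis) for both Mybl2 probe sets, the mean of 19 mitotic genes and the mean of 12 DNA replication genes, with deleted arrays left of the dotted line and control arrays right of it. Mitotic genes and Mybl2 1454946_at are highest in deleted replicate 2 and lowest in deleted replicate 3, whereas Mybl2 1417656_at stands apart in control replicate 3.

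Of the cofactors of c-Myb and the regulators of its protein 10 of 12 genes were lower, with a median of -0.12, at the edge of the middle range of all genes, whose lower and upper quartiles were -0.12 and 0.11. The coactivators Crebbp and Ep300 differed by -0.17 (SE 0.252) and -0.15 (SE 0.201). Kmt2a and Men1, a histone methyltransferase and its partner menin that c-Myb contacts, differed by -0.18 and -0.02. Of the genes that mark the c-Myb protein for destruction, Hipk2 and Nlk, both kinases, differed by -0.08 and -0.02, and Fbxw7, the substrate receptor of a ubiquitin ligase, by 0.10. Deleted replicate 2 was the lowest array of this list, at -0.33 relative to the list mean, while the other 5 arrays lay between 0.00 and 0.12. Without that array the median was 0.03, and without control replicate 1 it was -0.02. None was called by limma (adjusted p = 0.9999 each).

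Known c-Myb target genes of blood progenitors were split in direction. Of 14 genes 6 were lower and 8 higher, with a median of 0.01. Kit and Cd34, which endothelial cells express too, differed by 0.03 (SE 0.219) and 0.02 (SE 0.125), the survival gene Bcl2 by -0.03 (SE 0.186) and Myc by 0.38 (SE 0.292). Gfi1, a transcriptional repressor made in blood progenitors, read 5.42, 5.31 and 5.33 in deleted samples, against 5.29, 4.54 and 4.87 in control samples. Its groups were without overlap at a dim probe set. The myeloid protease gene Prtn3 differed by -0.69 (SE 0.551) with overlapping groups. None was called by limma (adjusted p = 0.9999 each).

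Targets of A-Myb in the testis were mostly dim, 10 of 11 below the median signal, with a median difference of 0.01. Piwil1, an Argonaute protein of the piRNA pathway, and Ccna1, a germ cell cyclin, differed by 0.04 and 0.10. Other proteins with Myb-type repeats had a median of 0.08, and among them the splicing factor gene Cdc5l differed by 0.20, Dmtf1 by -0.09 and Terf1, which encodes a telomere-binding protein, by 0.33. These were not called either (limma, adjusted p = 0.9999 each). Of the 27 named pathway genes, 17 changed sign with at least 1 array left out.

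**Figure D4:**
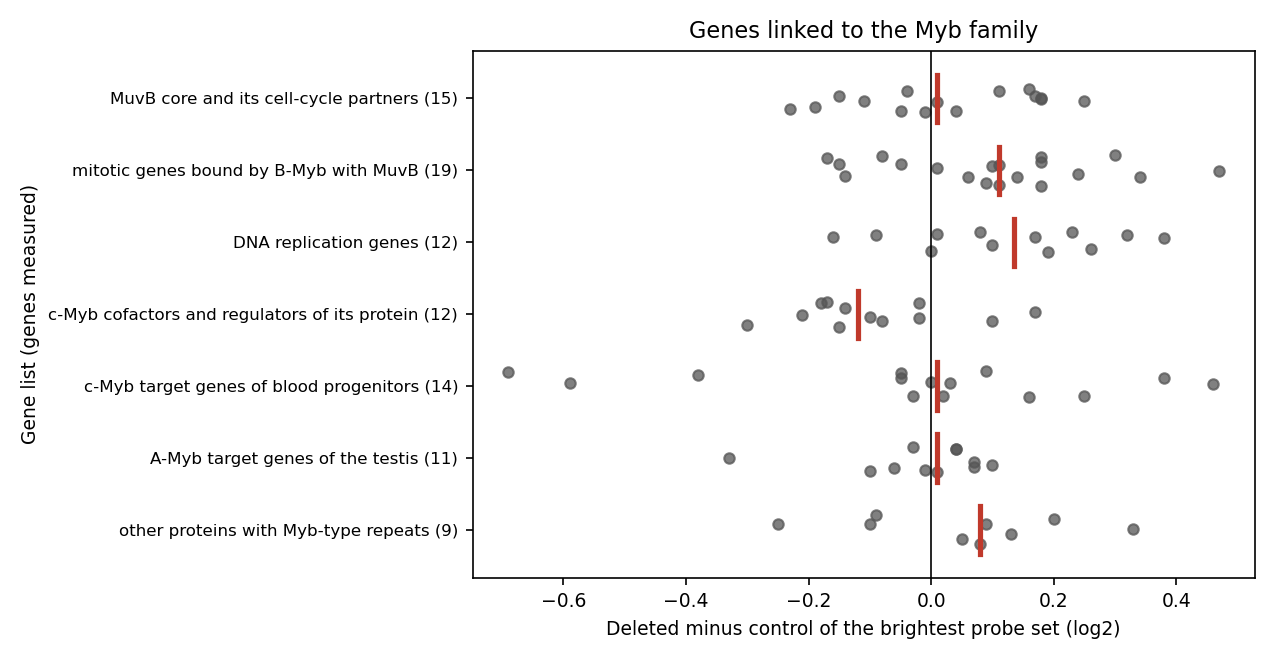
Deleted minus control (log2, horizontal axis) of each gene at its brightest probe set, in 7 lists of Myb partners, targets and relatives with the number measured in brackets, and a red bar for the median of each list. The medians lie between -0.12 for c-Myb cofactors and 0.14 for DNA replication genes.

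Markers of the cells known to express Myb overlapped between the groups. For 8 T cell markers the mean level ranged from 6.71 to 7.07 in deleted and from 6.55 to 7.24 in control samples, with 5 of 8 lower. Their differences ran from -0.34 to 0.51. Granulocyte progenitor markers ranged from 4.98 to 5.27 in deleted and from 5.12 to 5.60 in control samples, with 3 of 5 lower and a median of -0.23. Their differences ran from -0.69 for Prtn3, with overlapping groups, to 0.16. Mpo, their defining enzyme, read 4.27 ± 0.17 in deleted and 4.64 ± 0.48 in control samples (SD, n = 3 each), far below the median of all probe sets. Erythroid markers, 3 of 4 below the median signal, ranged from 5.91 to 6.65 in deleted and from 6.02 to 6.23 in control samples. All 4 were higher, with a median of 0.18. Luminal epithelial markers ranged from 11.01 to 11.36 in deleted and from 11.03 to 11.54 in control samples, with 7 of 9 lower and a median of -0.14. B cell markers ranged from 5.69 to 5.84 in deleted and from 5.52 to 6.55 in control samples, with 3 of 6 lower and a median of -0.12. Their differences ran from -0.79 for Ms4a1, which encodes CD20, to 0.15. Without control replicate 3 the Ms4a1 difference was -0.16. Mast cell markers ranged from 5.49 to 5.76 in deleted and from 5.62 to 5.75 in control samples, with 3 of 6 lower and a median of -0.04. Their differences ran from -0.64 for the mast cell protease gene Mcpt4 (limma, adjusted p = 0.9999) to 0.38. Among defining markers, Cd3e, a subunit of the T cell receptor complex, differed by 0.15, the mast cell protease Cpa3 by -0.09 and the B cell receptor subunit Cd79a by 0.15.

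Of 13 marker lists only those of macrophages and fibroblasts were apart between the groups. Over all single probe sets 6.44% were apart in either direction, and no such share was taken for list means. The Myb probe sets 1450194_a_at and 1422734_a_at were apart too. As Myb was chosen on this contrast, that likeness carries no test. The mean level of 8 macrophage markers ranged from 8.74 to 9.41 in deleted and from 9.57 to 10.20 in control samples, with 8 of 8 lower and a median of -0.80, and Adgre1, which encodes F4/80, differed by -0.91. C1qb, a complement subunit made by macrophages, was past both unadjusted thresholds with -1.30, though its groups overlapped. That of 6 fibroblast markers ranged from 8.80 to 9.20 in deleted and from 9.44 to 9.84 in control samples, with 6 of 6 lower and a median of -0.56, and Col1a1 differed by -0.38. The collagen gene Col14a1 was past both as well, with -1.16 and no overlap. Neither was called by limma after adjustment (adjusted p = 0.9999 each). The paper had listed both C1qb and Col14a1 among the genes it called on these same arrays. Their passing the thresholds was thus known beforehand and adds no support, and both count in the mean of their list. Pan-leukocyte markers were lower at 6 of 6 genes with overlapping levels, 9.02 to 9.84 in deleted and 9.51 to 10.17 in control samples, and Ptprc, which encodes CD45, differed by -0.43. Lymphatic endothelial markers were lower at 4 of 4 genes with a median of -0.50 and general endothelial markers higher at 8 of 8 with a median of 0.19, both with overlapping levels. The part of macrophage, other leukocyte, fibroblast, lymphatic or epithelial RNA in the Myb difference was not tested. The platelet gene Pf4 and the basal keratin Krt5 differed by -0.21 and -0.38, each with overlap.

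**Figure D5:**
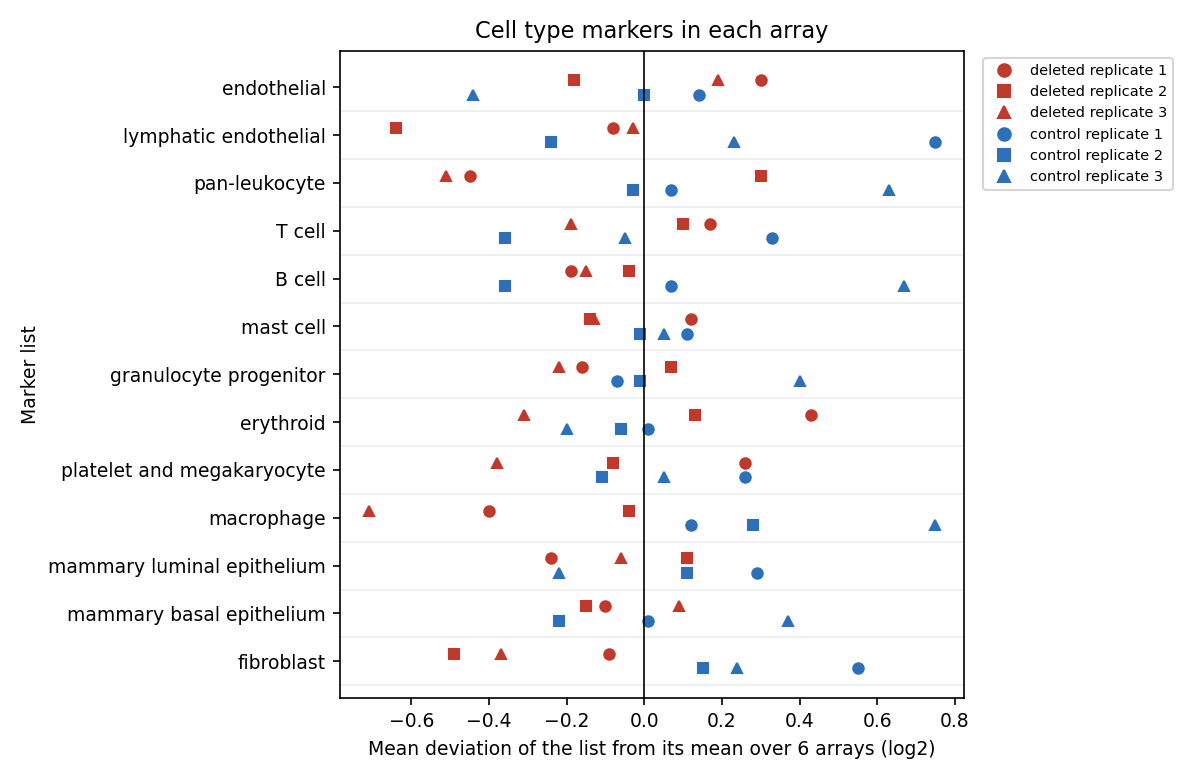
Mean deviation of each marker list from its mean over 6 arrays (log2, horizontal axis), with deleted samples in red above control samples in blue and marker shapes for the replicates. Macrophage and fibroblast markers are lower in all 3 deleted than in all 3 control samples, and the other 11 lists overlap.

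The genes whose pattern over the 6 arrays was most like each member were looked for among genes at or above the median signal, by the root mean square (RMS) difference of the deviations from each gene's own mean. For the brightest Myb probe set they included Dapl1 (0.147) and Cd3d (0.166), a subunit of the T cell receptor complex. Of 11287 genes only Dapl1 came within 0.15 of it, where Myb itself varied by an RMS of 0.44. None of the 20 lists, that of T cells included, shared the array order of this probe set. Between the groups Cd3d differed by -0.17 and Cd3e by 0.15. By the same RMS measure the genes nearest to Myb 1450194_a_at were farther off. They were Zfr2 at 0.257, Ms4a7, a gene known from macrophages, at 0.266 and A530020G20Rik at 0.269, where the probe set itself varied by 0.53. Closer were those of the dimmest Myb probe set, 1422734_a_at. They were D630039A03Rik (0.0942), Fads6 (0.133) and Mal2 (0.139), among 4 genes within 0.15.

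For Mybl1 the most alike were Slc25a39 (0.0511), Zmiz2 (0.0585) and Tor2a (0.0752), and 80 of 11288 genes came within 0.15. All 3 were highest in control replicate 3, which was the highest array for 26.9% of all genes. For the brighter Mybl2 probe set they were Ndufaf2 (0.0366), Cnih4 (0.0395) and Kdelr3 (0.0419), among 1342 genes within 0.15, since this probe set varied by an RMS of only 0.16 and many genes are as flat. Likeness over 6 arrays describes these arrays alone.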

How the data were processed

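A single table was used, in which the authors deposited RMA values on the log2 scale (background correction, quantile normalization and a summary per probe set), from amplified RNA. The sources used here name no RMA version. Of 45101 probe sets, 64 array controls were left out, with no filter on signal. The annotation named 1 gene for 34945 probe sets (34741 matched to RefSeq by gene number), several for 932 and none for 9160. The brightest 1-gene probe set stands for a gene. Ccnb1, Ppid, Tdrd6 and some markers had no such probe set and are not analysed here.

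A linear model per probe set with moderated two-sided tests (limma 3.58.1, run under R 4.3.3) compared 3 against 3 arrays without covariates, with Benjamini-Hochberg adjustment, after a test on simulated arrays. The number of arrays limits the precision. The samples were biological replicates per the methods. For the control samples 1 label denies an oncogene while title and genotype name PyMT, and the genotype was followed. The members and lists were chosen with earlier results of these data known. By rule the text names the members, 27 measured pathway genes whatever their values, listed genes past both thresholds, the 3 genes most like each member (1 of those for Myb is not reported here) and 11 defining markers. Mcm4, Gfi1, Prtn3, Ms4a1, Mcpt4, the genes most like Myb 1450194_a_at and the array order were added after their values were seen. Alternatives were a signal filter, other scalings, tests and weights, other ways to represent a gene, the identifier number as a block, and leaving out each array.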

Additional observations from a re-analysis of the deposited data

How the results depend on the processing

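The 7 member probe sets had 90 alternative values, of which 86 lay within 1 SD of the values given. Values within 1 SD can still differ in sign, as Mybl2 1417656_at did with -0.42 and, with a replicate block, 0.48. The count therefore does not show that directions were kept. Represented by its probe set with the largest SD, Myb differed by -1.01 and Mybl2 by -0.42, and as the mean over its probe sets Mybl2 differed by -0.18. The 58 probe sets past the fold and unadjusted p thresholds became 15 with a filter at the median signal, 23 with an unmoderated test, 152 with array weights, 317 with a replicate block, and from 61 without deleted replicate 1 to 191 without deleted replicate 2 (153 without control replicate 1, 90 without control replicate 2 and 159 without deleted replicate 3). The count without overlap was 2900 over all probe sets and 1121 above the median signal. The filter leaves fewer probe sets to count, so 15 and 1121 are not directly comparable with the full counts. The DNA replication median became 0.46 with a replicate block, that of c-Myb targets ranged from -0.03 to 0.14 with 1 array left out, the highest without deleted replicate 2, and that of A-Myb targets was 0.07 above the median signal. The mitotic median became 0.57 with the block and ranged from -0.07 to 0.38 with 1 array left out, the DNA replication median from -0.03 to 0.31 and the c-Myb cofactor median from -0.19 to 0.03, so none of these lists kept its sign. By the adjusted test 0 probe sets were called in any setting. The block used the number in the animal identifiers, of which the groups share a pair, and whose meaning the labels do not give. Control replicate 3 and deleted replicate 3 have numbers that no other array shares, so the block takes them out of the comparison. All values with the block, the count of 317 included, therefore rest on replicates 1 and 2 of each group. Deviations of arrays with the same number correlated at 0.166 and -0.0171, which does not show that the numbers pair the arrays. With the block Myb 1450194_a_at differed by -1.04 and 1421317_x_at by -0.04, while Mybl1 1450481_at (0.14) and 1456951_at (0.07) and Mybl2 1417656_at (0.48) turned positive. Most member probe sets lie below the median signal, where RMA narrows differences.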
